A study of Mus musculus with 6 samples.

Results

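Every protein of the mitochondrial ribosome is encoded in the nucleus, and the genes described here are those named for it. They were chosen by symbol: each gene whose array annotation starts with Mrpl or Mrps and a digit, read from its brightest probe set that carries a single symbol. This gave 76 genes (47 Mrpl and 29 Mrps) of 18193 genes with such a probe set. RNA from hearts of male C57BL/6J mice was hybridised to 6 Affymetrix arrays, 2 per group. The groups were a line with high FASN (fatty acid synthase, the enzyme that makes palmitate), a line with low FASN, and age-matched B6 controls. The alpha-MHC promoter drove the transgene in both lines and is active mainly in heart muscle cells. Each level is 1 line, so it cannot be told apart from whatever else sets that line apart; no age is given. The tissue label names the heart as transgenic for controls too, and titles defined the groups. Whether the 2 arrays of a group stem from different hearts is not stated, so p-values measure only how far these arrays vary, and that variation may be technical.

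Mitochondria keep a small genome whose messages encode core subunits of the respiratory chain and ATP synthase. A dedicated ribosome inside the organelle translates them: its small subunit decodes the message and its large subunit joins the amino acids. The ribosomal proteins are made in the cytosol and imported. Some descend from bacterial ribosomal proteins and others occur only in mitochondria. The heart depends heavily on respiration, and inherited defects of several of these proteins cause cardiomyopathy in humans. Symbol and structure do not match throughout: the products of Mrps30 and Mrps18a sit in the large subunit, and Mrps36 encodes a component of the 2-oxoglutarate dehydrogenase complex.

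Fasn read 2268 and 2104 on the high-line arrays, 461.7 and 480.6 on the low-line arrays and 213.3 and 187.2 on the control arrays, which follows the order of the labels. All 10 heart muscle markers listed, among them Myh6 and Actc1, were bright enough to be tested. So were all 76 members, which lay between percentiles 75.6 and 99.3 of brightness. Signals are in arbitrary linear units, and differences are in log2(signal + 16); a signed value beside a gene is such a difference in the comparison named, with limma's adjusted p. The median gap between the 2 arrays of a group over the members was 0.0775 for the high line, 0.0542 for the low line and 0.0456 for controls. The members' summed signal was 181118 and 178396 on the high-line arrays, 165316 and 167583 on the low-line arrays and 185205 and 184288 on the control arrays, lowest on the low-line pair. In bulk tissue, fewer cells of a type and less RNA per cell cannot be told apart.

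Many mitochondrial ribosomal protein genes had lower signals in the low line than in control. Of the 76 members, 32 were lower, 5 were higher and 39 did not pass (limma, Benjamini-Hochberg adjusted over 22519 probe sets). Lower calls made up 42.1% of the members, against 10.8% of all tested probe sets, and higher calls 6.58%, against 13.5%. With the filter raised to the 75th percentile, which still held all members, 33 were lower and the background was 19%. The median difference was -0.168 over the members and 0.0183 over all tested probe sets. Both low-line arrays lay below both control arrays in 47 members, as in 30.3% of all tested probe sets, and above them in 15, as in 34.7%.

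**Figure D1:**
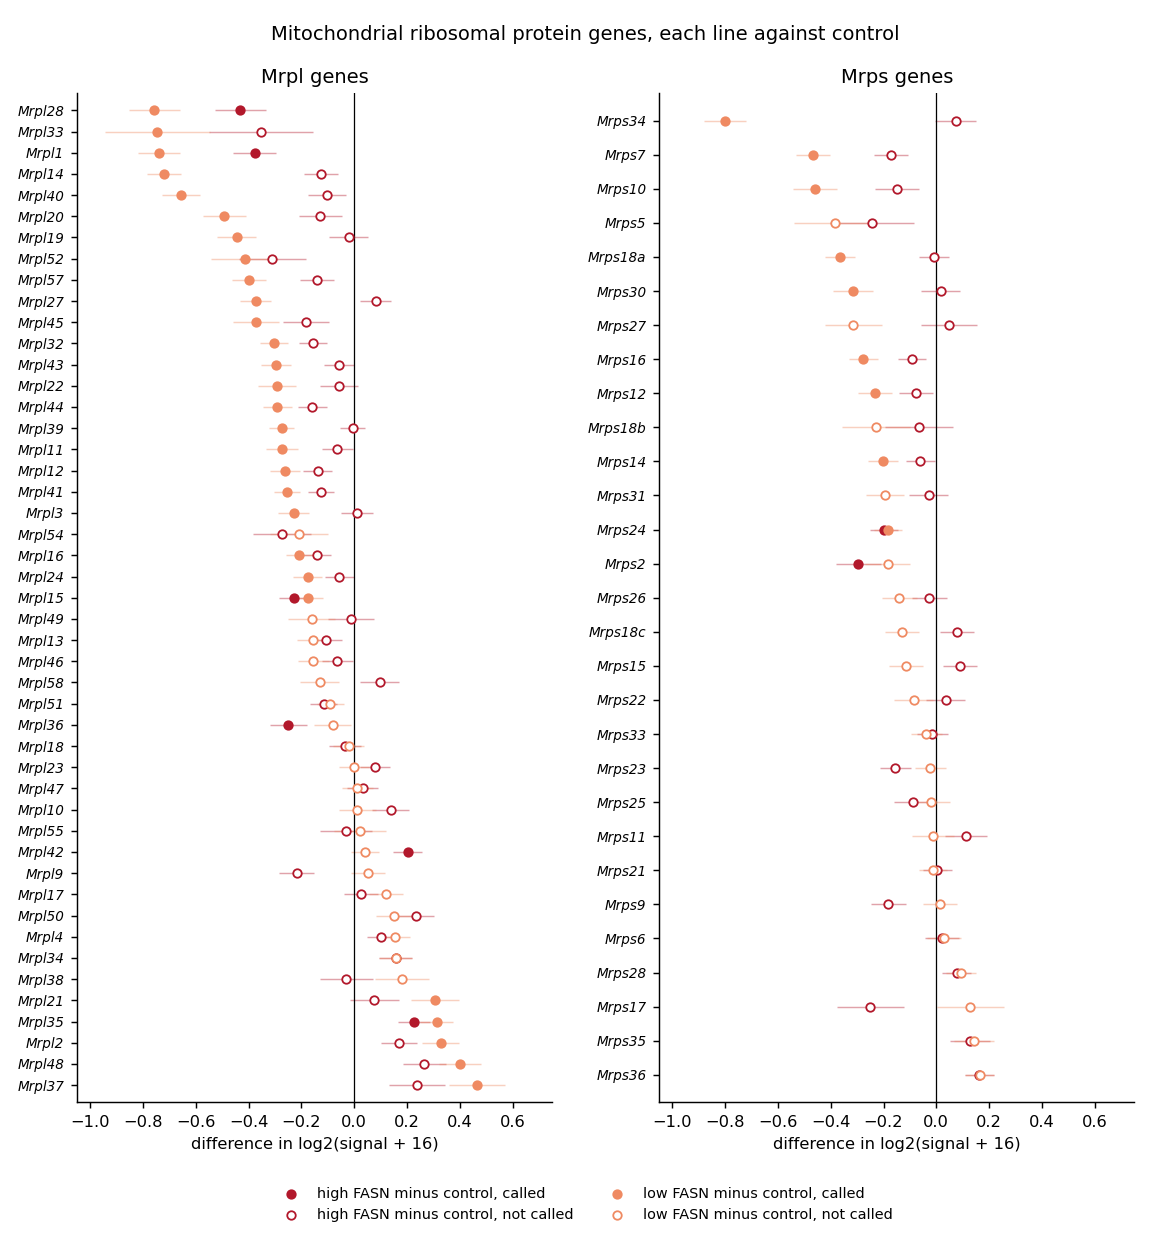
Difference of each line from control for all 76 members in log2(signal + 16), with Mrpl genes on the left and Mrps genes on the right, ordered by the low line. Filled circles passed an adjusted p of 0.05, open circles did not, and bars are the standard error. The high line (red) holds 6 filled circles left of zero and 2 right of it, and the low line (orange) 32 and 5.

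The largest fall was that of Mrps34, a small-subunit protein. Mrps34 read 3435 and 3074 on the high-line arrays, 1648 and 1895 on the low-line arrays and 3052 and 3124 on the control arrays. Its low-line pair lay far below the other 4 arrays, and the high-line and control values overlapped. Mrps34 was 1.74-fold lower in the low line than in control (log2 difference -0.80 ± 0.0789 SE, adjusted p = 0.000137). Mrpl28 read 2308 and 2896 on the high-line arrays, 2114 and 2007 on the low-line arrays and 3349 and 3643 on the control arrays. This large-subunit protein of bacterial descent was lower in the low line (-0.76, adjusted p = 0.00055), and its other tested probe sets gave -0.62 and -0.65.

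Mrpl14, a protein of the interface between the subunits, had closely matching arrays within the low line and within control. Mrpl14 read 1738 and 1896 on the high-line arrays, 1192 and 1197 on the low-line arrays and 1979 and 1982 on the control arrays. The mean was 1195 ± 3.06 in the low line and 1980 ± 1.92 in control (SD, n = 2; limma log2 difference -0.72, adjusted p = 7.44e-05). Mrpl1 belongs to a ribosomal protein family of bacterial descent. Mrpl1 read 845.5 and 830.1 on the high-line arrays, 637 and 659.4 on the low-line arrays and 1032 and 1157 on the control arrays. It was lower in the low line (-0.74, adjusted p = 0.000223), while a dimmer probe set of the gene stood at -0.0058 (adjusted p = 0.98). Mrpl33 read 1641 and 2299 on the high-line arrays, 1864 and 1170 on the low-line arrays and 2423 and 2553 on the control arrays. The arrays of Mrpl33 differed more within the low line than those of any other member, and its fall carried an SE of 0.198 (-0.75, adjusted p = 0.0226).

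**Figure D2:**
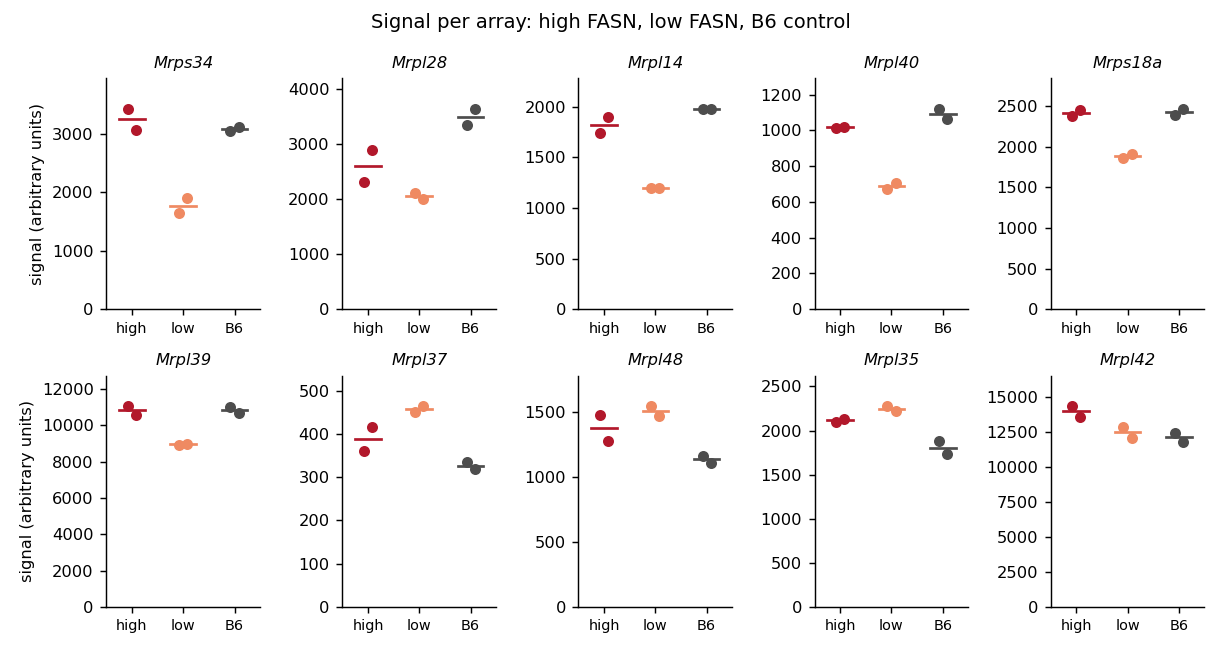
Signal of 10 members on each array (arbitrary units, linear axis from 0), with high FASN left, low FASN in the middle and B6 control right. Points are arrays and bars are group means of 2 arrays. Mrps34, Mrpl28, Mrpl14, Mrpl40, Mrps18a and Mrpl39 are lowest on both low-line arrays, and Mrpl37 and Mrpl35 are highest on them.

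The large subunit's stalk recruits translation factors. Of its 3 measured proteins, Mrpl12 (-0.26, adjusted p = 0.00788) and Mrpl11 (-0.27, adjusted p = 0.00923) were lower in the low line, and Mrpl10 stood at 0.013 (adjusted p = 0.919). Mrpl12 read 5146 and 5619 on the high-line arrays, 4918 and 4952 on the low-line arrays and 5977 and 5866 on the control arrays. Around the tunnel through which the new chain leaves, 3 of 6 proteins were lower and 0 higher (limma; 0 higher at an unadjusted p below 0.05). These were Mrpl45, which ties the ribosome to the inner membrane (-0.37, adjusted p = 0.0131), Mrpl22 (-0.29, adjusted p = 0.0155) and Mrpl24 (-0.18, adjusted p = 0.045). Mrpl23 stood at -0.00028, Mrpl47 at 0.011 and Mrpl17 at 0.12, and these did not pass. Lower calls made up 66.7% of the stalk proteins and 50% of the tunnel proteins, against 10.8% of all tested probe sets.

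In the central protuberance, the crest of the large subunit, 1 of 7 proteins was lower and 1 higher. Each share, 14.3%, is near that of all tested probe sets, 10.8% lower and 13.5% higher. Mrpl40 read 1015 and 1019 on the high-line arrays, 671.8 and 705.6 on the low-line arrays and 1122 and 1066 on the control arrays, and the low line was lower than control (-0.66, adjusted p = 0.000235). Mrpl48 read 1475 and 1275 on the high-line arrays, 1546 and 1470 on the low-line arrays and 1165 and 1111 on the control arrays, and the low line was higher (0.40, adjusted p = 0.00599). The other tested probe sets of Mrpl48 stood at -0.084 and -0.19 and did not pass. Mrpl46 (-0.15), Mrpl58, which releases chains from stalled ribosomes (-0.13), Mrpl18 (-0.021), Mrpl55 (0.022) and Mrpl38 (0.18) did not pass either.

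Of large-subunit proteins of bacterial descent, 15 of 29 were lower in the low line and 3 higher (median -0.175). Of those found only in mitochondria, 8 of 18 were lower and 2 higher (median -0.185). In the small subunit, 6 of 15 of bacterial descent were lower (median -0.184) and 1 of 10 of the others, namely Mrps34 (median -0.0618). All tested probe sets had 10.8% lower, so the share of the last list is near the background. Whether the shares differ between lists was not tested. By symbol, 23 of 47 Mrpl genes were lower and 5 higher, and 9 of 29 Mrps genes were lower and 0 higher (limma; 1 higher at an unadjusted p below 0.05). The S18 family has 3 genes with separate products. Mrps18a read 2380 and 2453 on the high-line arrays, 1863 and 1906 on the low-line arrays and 2392 and 2470 on the control arrays, and the low line was lower than control (-0.36, adjusted p = 0.00155). Mrps18b (-0.23, adjusted p = 0.238) and Mrps18c (-0.13, adjusted p = 0.178) did not pass.

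All 5 members higher in the low line were Mrpl genes. Mrpl37 read 361.3 and 416.8 on the high-line arrays, 450 and 464.3 on the low-line arrays and 335 and 318.3 on the control arrays (low minus control 0.47, adjusted p = 0.0117). Mrpl35 read 2097 and 2133 on the high-line arrays, 2276 and 2217 on the low-line arrays and 1877 and 1738 on the control arrays (0.31, adjusted p = 0.00537). Other probe sets of Mrpl35 stood at -0.21 and 0.46 and did not pass. Mrpl2, a core protein near the site of peptide bond formation, was higher (0.33, adjusted p = 0.00824), as was Mrpl21 (0.31, adjusted p = 0.0378).

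Fewer members were called when an array of either group was left out, and fewer probe sets of all kinds were too. Without low-line array 1, 18 members were lower and 1 higher. Without low-line array 2, 19 were lower and 3 higher. Without control array 1, 21 were lower and 4 higher. Without control array 2, 20 were lower and 0 higher (limma; 5 higher at an unadjusted p below 0.05). In these fits, in the same order, 5.89%, 6.07%, 6.32% and 5.95% of all tested probe sets were lower, and 6.98%, 6.91%, 8.74% and 8.38% higher. Of the 32 lower members, 14 kept their call whichever of the 6 arrays was left out: Mrpl1, Mrpl14, Mrpl19, Mrpl20, Mrpl27, Mrpl28, Mrpl32, Mrpl39, Mrpl40, Mrpl57, Mrps10, Mrps18a, Mrps34 and Mrps7. Under all 3 other scalings 27 kept it, and without the intensity trend 12 did. The 18 hybridisation control probe sets had a median difference of -0.189 for low minus control and 0.271 for high minus low. With cyclic loess, the members' median was -0.142 for low minus control and 0.0801 for high minus low, against -0.00655 and 0.00147 over all tested probe sets. The part of the controls' shift in the results was not tested.

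Markers of other cells moved in the same comparison. Of 7 tested white fat markers, 4 were higher in the low line (57.1%, against 13.5% of all tested probe sets) and 1 lower, with a median of 1.34. In the high line 5 were higher, with a median of 2. Of 10 fibroblast markers, 9 were higher in the low line and 7 in the high line, with sums of 47231 and 46157 on the high-line arrays, 50255 and 51861 on the low-line arrays and 34658 and 34112 on the control arrays. Of 9 lymphocyte markers 4 were tested, and 4 were higher in the low line and 3 in the high line, with sums of 684 and 667 on the high-line arrays, 2442 and 2456 on the low-line arrays and 182 and 259 on the control arrays. Their part in the members' values was not tested.

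The high line differed from control in few of these genes. Of 76 members, 2 were higher, 6 lower and 68 did not pass. Those shares, 2.63% and 7.89%, stand beside 8.18% and 6.18% of all tested probe sets. The median difference was -0.0452, against 0.0367 over all tested probe sets. Both high-line arrays lay above both control arrays in 18 members (32.2% of all tested probe sets) and below them in 34 (23.9%). With the filter at the 75th percentile, which held all 76 members, 4 were higher and 7 lower. The background was then 14.1% higher and 11.8% lower.

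Mrpl28 had the largest difference, with a mean of 2602 ± 416 in the high line and 3496 ± 208 in control (SD, n = 2; limma -0.43, adjusted p = 0.017), while its other probe sets stood at -0.16 and -0.052 and did not pass. Mrpl1 (-0.38, adjusted p = 0.0132), Mrps2 (-0.30, adjusted p = 0.0474), Mrpl36 (-0.25, adjusted p = 0.0409), Mrpl15 (-0.23, adjusted p = 0.0246) and Mrps24 (-0.20, adjusted p = 0.037) were also lower. A dimmer probe set of Mrps2 stood at 0.43 and did not pass. The members higher in the high line were Mrpl42 and Mrpl35. Mrpl42 was the brightest member. Mrpl42 read 14332 and 13586 on the high-line arrays, 12866 and 12096 on the low-line arrays and 12451 and 11803 on the control arrays, so the high-line pair lay above the other 4 arrays (0.20, adjusted p = 0.0365). Mrpl35 differed by 0.23 (adjusted p = 0.0375).

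These calls also hung on single arrays. Without control array 1 there were 0 higher and 1 lower. Without control array 2, 0 were higher and 0 lower (limma; 4 and 9 at an unadjusted p below 0.05). Leaving out low-line array 1 or 2 gave 0 higher and 3 lower. Leaving out high-line array 1 gave 0 higher and 5 lower, and high-line array 2 gave 4 higher and 7 lower. Over all tested probe sets, higher and lower calls were 4.13% and 3.06% without control array 1, and 3.53% and 2.68% without control array 2. None of the 8 called members kept its call in all 6 of these fits. Markers of tissue outside the heart moved as well. The sum over 9 airway markers was 3343 and 3563 on the high-line arrays, 406 and 366 on the low-line arrays and 342 and 328 on the control arrays. That over 8 white fat markers was 77706 and 69653 on the high-line arrays, 55855 and 57228 on the low-line arrays and 48542 and 47861 on the control arrays. For 9 brown fat markers, of a tissue rich in mitochondria, it was 65078 and 60725 on the high-line arrays, 54591 and 55937 on the low-line arrays and 61655 and 60358 on the control arrays. This sum hides how single brown fat markers differed from control. Of 7 tested, the high line had 2 higher and 1 lower, with differences from -0.665 to 5.12. The low line had 2 higher and 0 lower (limma; 2 lower at an unadjusted p below 0.05), with differences from -0.208 to 3.21. The part of the airway and fat markers' tissues in the members' values was not tested.

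**Figure D3:**
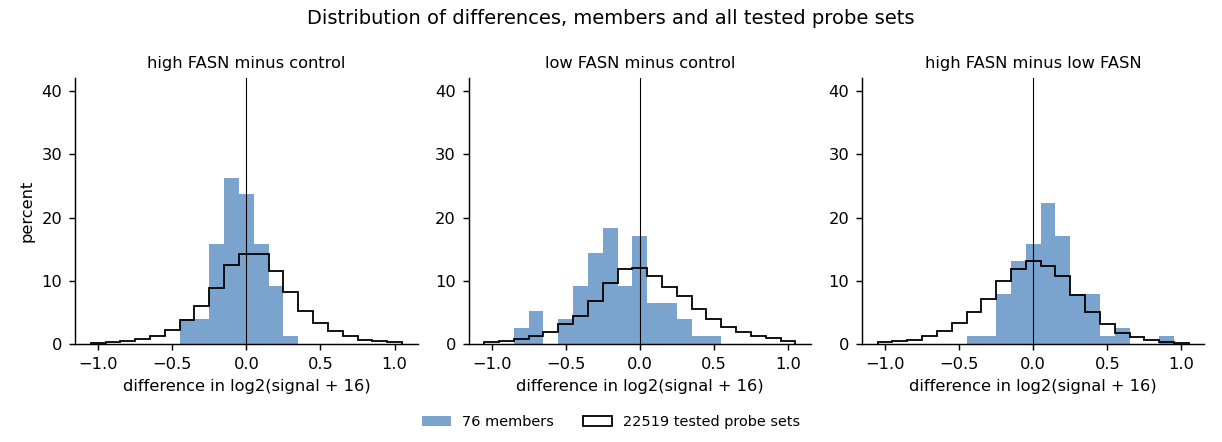
Distribution of the differences in log2(signal + 16) for the 76 members (blue bars) and for all 22519 tested probe sets (black outline), as a percent of each, in the 3 comparisons. The members' median is -0.0452 for high FASN minus control, -0.168 for low FASN minus control and 0.122 for high FASN minus low FASN.

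Between the lines, 21 members stood higher in the high line and 1 stood lower. Higher calls made up 27.6% of the members and 9.69% of all tested probe sets, and lower calls 1.32% and 8.87%. The median was 0.122, against 0.00546 over all tested probe sets. Both high-line arrays lay above both low-line arrays in 41 members (30% of all tested probe sets) and below them in 12 (29.2%). With the filter raised to the 75th percentile, which still held all 76 members, 24 were higher and 2 lower. The background was then 18.3% higher and 16.1% lower. The low-line arrays enter this comparison and the one with control alike. Higher calls made up larger shares of 3 other lists: 23 of 43 Nduf genes (53.5%, median 0.193), 26 of 46 cytosolic Rpl and Rps genes (56.5%, median 0.188) and 7 of 10 heart muscle markers (median 0.383). Lower calls numbered 0, 2 and 0 in the same lists (limma; 0 Nduf genes and 0 heart muscle markers lower at an unadjusted p below 0.05). Whether these shares differ from the members' was not tested.

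Mrps34 averaged 3254 ± 255 over high-line arrays and 1771 ± 175 over low-line arrays (SD, n = 2), a 1.83-fold difference (limma adjusted p = 0.000186). Mrpl14 (0.60, adjusted p = 0.000445) and Mrpl40 (0.55, adjusted p = 0.00111) followed. Mrpl27 read 2624 and 2620 on the high-line arrays, 1847 and 1973 on the low-line arrays and 2423 and 2532 on the control arrays, and high minus low was 0.45, adjusted p = 0.00115. Mrpl19 was higher in the high line (0.42, adjusted p = 0.00425), while its other probe sets stood at 0.081 and 0.042 and did not pass. Mrpl39 read 11059 and 10599 on the high-line arrays, 8947 and 9001 on the low-line arrays and 11037 and 10692 on the control arrays (0.27, adjusted p = 0.00486). Its high-line and control arrays overlapped, and the low-line pair lay below them. Mrpl9 alone was lower in the high line. Mrpl9 read 940.8 and 959.1 on the high-line arrays, 1154 and 1143 on the low-line arrays and 1117 and 1098 on the control arrays (-0.27, adjusted p = 0.0196).

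Without low-line array 1, 8 members were higher in the high line, and without low-line array 2 there were 6. Higher calls over all tested probe sets were 3.8% and 3.83% in these fits. With median centring there were 13. Mrpl14, Mrpl27, Mrpl40 and Mrps34 kept their call in every other setting run. Of all members, 17 were lower in the low line than in control, higher in the high than the low line, and uncalled between the high line and control. Both calls of these 17 rest on the same low-line arrays. In 34 members the group means ran control, high, low from the top. How often all tested probe sets show either pattern, or no call in any comparison, was not counted. In no comparison were 33 members called. Mrps36 was one of them: Mrps36 read 4426 and 4066 on the high-line arrays, 4256 and 4236 on the low-line arrays and 3792 and 3783 on the control arrays. Mrps5, the dimmest member, was another, with means of 259 ± 15.2 for the high line, 236 ± 48.2 for the low line and 311 ± 41.5 for control (SD, n = 2).

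Probe sets of one gene did not always run the same way. In the low line against control, all tested probe sets shared a sign in 18 of 32 members with several. Only Mrps14 had opposed calls, with its bright probe set lower (-0.20, adjusted p = 0.0264) and a dimmer one higher (0.76, adjusted p = 0.0016). Over all 129 tested probe sets of the members, 42 were lower (32.6%) and 6 higher (4.65%). In each of the other comparisons, all tested probe sets shared a sign in 14 of the 32 members. Between the lines, Mrpl1 and Mrpl3 were called higher in the high line. Their dimmer probe sets stood at -0.28 for Mrpl1 and at -0.13 and -0.21 for Mrpl3 and did not pass.

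Promoter sequences are shown because genes of this kind are known to share binding sites for general activators. RefSeq (GRCm38.p6) gave a window of 300 bases, from 250 before the start site to 50 after it, for 67 of the 76 genes. Both strands were searched for 4 strings. The ETS string CCGGAAG, of the family of GABP, was in 25 windows (37.3%, against 9.93% of all genes in the table). The NRF1 string GCATGCG, which can overlap itself on the other strand, was in 8 (11.9%, against 4.01%). The YY1 string AGATGGC was in 12 (17.9%, against 7.31%) and the ESRRA string AAGGTCA in 4 (5.97%, against 5.38%). Of the 67 genes, 28 held none of the 4 strings. A match is a string of letters, not a measured site.

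As examples, windows of 6 members called in the low line follow, lower for Mrpl14, Mrps18a, Mrpl22 and Mrpl27 and higher for Mrpl35 and Mrpl37. They lie at chr17:45686099-45686398 (plus strand), chr17:46110754-46111053 (plus strand), chr11:58171414-58171713 (plus strand), chr11:94653541-94653840 (plus strand), chr6:71823735-71824034 (minus strand) and chr4:107066817-107067116 (minus strand) in that order. Each runs 5′ to 3′ on the gene's strand, and capitals mark the strings found.
Mrpl14: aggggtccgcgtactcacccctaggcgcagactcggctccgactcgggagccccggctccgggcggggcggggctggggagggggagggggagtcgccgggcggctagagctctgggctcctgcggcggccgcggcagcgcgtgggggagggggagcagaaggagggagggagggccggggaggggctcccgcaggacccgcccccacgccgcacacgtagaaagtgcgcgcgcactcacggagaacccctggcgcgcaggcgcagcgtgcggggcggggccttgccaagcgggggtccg
Mrps18a: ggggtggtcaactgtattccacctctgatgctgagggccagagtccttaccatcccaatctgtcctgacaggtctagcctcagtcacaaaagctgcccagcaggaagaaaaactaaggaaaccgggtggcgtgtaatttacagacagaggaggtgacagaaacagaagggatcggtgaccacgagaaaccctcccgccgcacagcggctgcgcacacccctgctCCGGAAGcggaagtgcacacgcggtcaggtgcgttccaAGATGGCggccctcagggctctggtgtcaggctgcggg
Mrpl22: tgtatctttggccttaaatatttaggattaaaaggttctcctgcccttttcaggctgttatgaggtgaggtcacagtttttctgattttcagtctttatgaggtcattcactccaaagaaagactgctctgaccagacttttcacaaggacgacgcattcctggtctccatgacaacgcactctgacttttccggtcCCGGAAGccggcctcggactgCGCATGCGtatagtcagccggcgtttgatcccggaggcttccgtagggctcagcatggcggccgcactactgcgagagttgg
Mrpl27: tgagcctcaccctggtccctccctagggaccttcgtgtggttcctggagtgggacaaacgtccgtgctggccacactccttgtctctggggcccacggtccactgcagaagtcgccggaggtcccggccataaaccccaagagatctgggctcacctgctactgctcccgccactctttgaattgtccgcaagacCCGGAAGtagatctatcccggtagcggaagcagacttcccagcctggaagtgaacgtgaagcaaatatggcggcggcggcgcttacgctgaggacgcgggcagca
Mrpl35: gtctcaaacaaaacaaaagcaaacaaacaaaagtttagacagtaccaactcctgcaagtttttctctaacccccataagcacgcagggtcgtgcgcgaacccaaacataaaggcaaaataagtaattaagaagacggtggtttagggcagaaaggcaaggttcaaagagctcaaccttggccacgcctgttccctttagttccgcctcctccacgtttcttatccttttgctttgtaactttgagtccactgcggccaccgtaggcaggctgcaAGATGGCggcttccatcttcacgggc
Mrpl37: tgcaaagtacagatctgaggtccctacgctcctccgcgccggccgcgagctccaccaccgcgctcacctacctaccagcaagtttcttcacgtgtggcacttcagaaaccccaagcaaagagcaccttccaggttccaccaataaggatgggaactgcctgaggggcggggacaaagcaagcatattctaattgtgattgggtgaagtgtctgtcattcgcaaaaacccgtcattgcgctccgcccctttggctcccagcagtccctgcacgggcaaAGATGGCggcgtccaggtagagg

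Mrpl22 holds an ETS string and overlapping NRF1 strings before the start, Mrpl27 an ETS string, and Mrps18a an ETS string before and a YY1 string after the start. In Mrpl35 and Mrpl37 the YY1 string begins 24 and 27 bases after it, and Mrpl14 holds none of the 4. Among members not shown, Mrpl28, Mrpl1 and Mrpl40, lower in the low line, and Mrpl2, higher there, hold none either. Mrpl21 and a window of Mrpl48, both genes higher there, hold an ETS string. The ETS string was in 10 of 29 windows of members lower in the low line, 13 of 33 of those uncalled and 2 of 5 of those higher. The YY1 string was in 5, 5 and 2 of the same windows. On the gene's own strand after the start it was in 8 members (11.9%, against 1.37% of all genes), 12 to 37 bases downstream; its letters include ATG.

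Other parts of mitochondrial translation were read from lists of genes. Of 4 measured ribosomal proteins named outside the Mrp series, 3 were lower in the low line than in control. Ptcd3 read 3415 and 3188 on the high-line arrays, 2514 and 2192 on the low-line arrays and 3767 and 3599 on the control arrays. Ptcd3, an RNA-binding protein of the small subunit, differed by -0.65 (adjusted p = 0.000286), Gadd45gip1 of the large subunit by -0.53 (adjusted p = 0.0012) and Chchd1 by -0.38 (adjusted p = 0.0037). Dap3, a GTP-binding protein of the small subunit, stood at 0.076 (adjusted p = 0.49). Between the high line and control 0 were lower (limma; 2 at an unadjusted p below 0.05).

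Of 11 translation factors, 3 were lower and 1 higher in the low line. The initiation factors Mtif2 (-0.40, adjusted p = 0.000879) and Mtif3 (-0.57, adjusted p = 0.0126) and the deformylase gene Pdf (-0.20, adjusted p = 0.048) were lower. Gfm1 read 2041 and 1956 on the high-line arrays, 2611 and 2544 on the low-line arrays and 2004 and 1997 on the control arrays. Gfm1, an elongation factor, was thus higher in the low line than in control (0.36, adjusted p = 0.00162). Of 18 genes of assembly and rRNA modification, 2 were lower (11.1%) and 1 higher (5.56%), beside 10.8% and 13.5% of all tested probe sets, with a median of 0.0707. The lower share is near the background and the higher share below it. Fastkd2, an RNA-binding factor (-0.56, adjusted p = 0.000361), and Malsu1, which binds Mrpl14 (-0.38, adjusted p = 0.00316), were lower, and the GTPase gene Gtpbp10 was higher (0.72, adjusted p = 0.00745). In the high line Fastkd2 was lower (-0.30), and Gtpbp10 (0.54) and the rRNA methyltransferase gene Mrm1 (0.51) were higher.

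**Figure D4:**
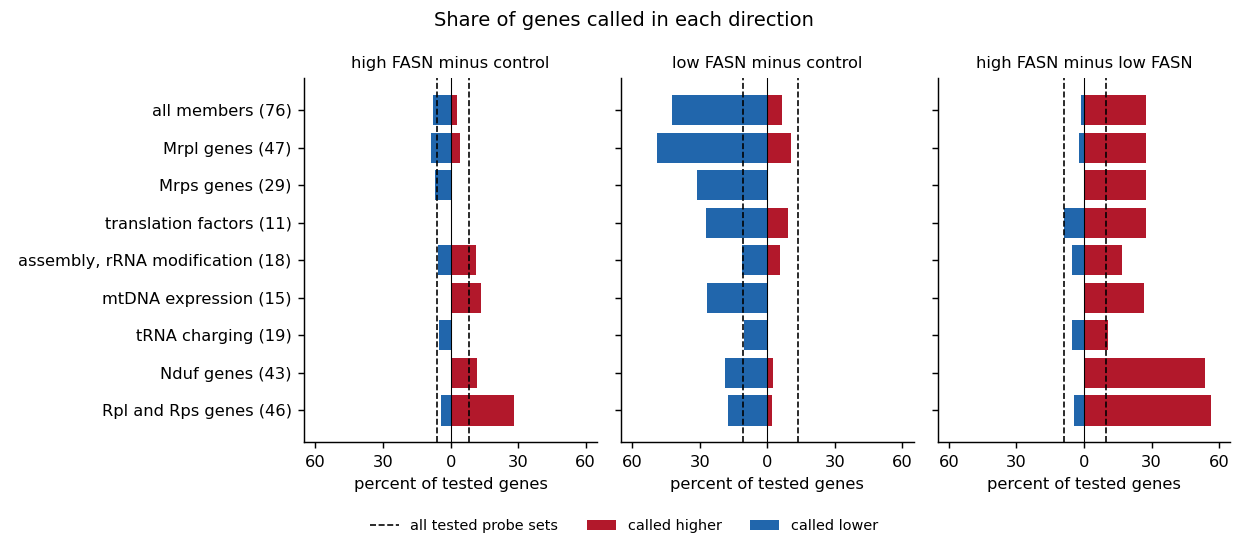
Percent of tested genes called higher (red, right) and lower (blue, left) in the 3 comparisons, for all members, Mrpl and Mrps genes, other lists of mitochondrial translation, and Nduf and cytosolic Rpl and Rps genes. The number of tested genes stands in brackets, and dashed lines give the shares over all tested probe sets. The members reach 42.1% lower for low FASN minus control.

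Of 15 genes of mitochondrial DNA upkeep and expression, 4 were lower and 0 higher in the low line (limma; 0 higher at an unadjusted p below 0.05). They were the RNA polymerase gene Polrmt (-0.41, adjusted p = 0.00283), the helicase genes Twnk (-0.37, adjusted p = 0.0326) and Supv3l1 (-0.33, adjusted p = 0.0308), and Elac2, which processes tRNA (-0.42, adjusted p = 0.0464). Tfam, which packages mitochondrial DNA, stood at -0.046 (adjusted p = 0.765). In the high line Lrpprc, a stabiliser of mitochondrial messages (0.24, adjusted p = 0.0476), and Ssbp1 (0.20, adjusted p = 0.0253) were higher. Of 19 genes of tRNA charging, Gatb (-0.65, adjusted p = 0.00212) and the dim Aars2 (-0.87, adjusted p = 0.0401) were lower in the low line, a share of 10.5% that is near the 10.8% of all tested probe sets.

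Of 12 regulators of mitochondrial genes, 3 were lower (25%), 2 higher (16.7%) and 7 uncalled in the low line. All tested probe sets had 10.8% lower and 13.5% higher, so the higher share is near the background. In the high line 1 was lower (8.33%), 2 higher (16.7%) and 9 uncalled, beside 6.18% and 8.18% of all tested probe sets. Esrra read 1090 and 1051 on the high-line arrays, 779.9 and 801.7 on the low-line arrays and 1122 and 1057 on the control arrays. This nuclear receptor gene was lower in the low line than in control (-0.45, adjusted p = 0.00166), as were its relative Esrrg (-0.53, adjusted p = 0.000493) and Yy1 (-0.21, adjusted p = 0.0259). Nrip1, a corepressor (0.76, adjusted p = 0.000146), and Gabpa, an ETS factor (0.35, adjusted p = 0.00377), were higher. In the high line the coactivator gene Ppargc1a was lower (-0.66, adjusted p = 0.00207), and its relative Ppargc1b (0.51, adjusted p = 0.00127) and Nrip1 (0.44, adjusted p = 0.00481) were higher.

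**Figure D5:**
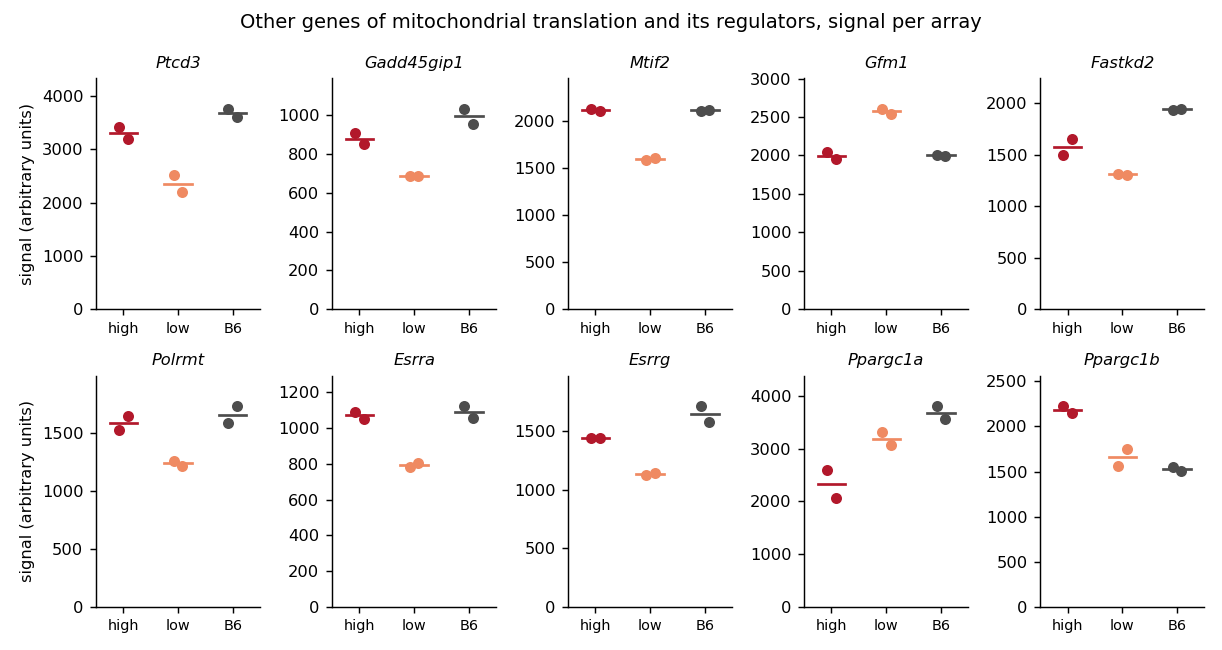
Signal of 10 other genes of mitochondrial translation and its regulation on each array (arbitrary units, linear axis from 0), with high FASN left, low FASN in the middle and B6 control right; points are arrays and bars are group means. Ptcd3, Gadd45gip1, Mtif2, Polrmt, Esrra and Esrrg are lowest on both low-line arrays, and Gfm1 is highest on them.

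For comparison, of 43 tested Nduf genes, most of which encode complex I, 8 were lower and 1 higher in the low line (median -0.117). The high line had 5 higher and 0 lower (limma; 0 lower at an unadjusted p below 0.05; median 0.0706). Of 46 tested cytosolic Rpl and Rps genes, 8 were lower and 1 higher in the low line (median -0.057), and 13 higher and 2 lower in the high line (median 0.116). Against these counts, the members had 42.1% lower in the low line, Nduf genes 18.6% and Rpl and Rps genes 17.4%, while between the lines both families had larger shares higher than the members. By sign alone, low minus control was negative in 55 of 76 members, 36 of 43 Nduf genes and 30 of 46 Rpl and Rps genes. Both low-line arrays lay below both control arrays in 47, 33 and 24 of them, as in 30.3% of all tested probe sets. These differences were not tested.

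Heart muscle, endothelial and macrophage markers differed between the groups too. The sum over 10 heart muscle markers was 254586 and 228655 on the high-line arrays, 185068 and 189657 on the low-line arrays and 209204 and 201337 on the control arrays. Against control, 1 of them was lower in the low line, Tnnt2 (-0.32, adjusted p = 0.00754), while 7 were higher in the high line. That 1 is a share of 10%, near the 10.8% of all tested probe sets. Low minus control was negative in 8 of the 10 heart muscle markers, with a median of -0.119. In 7 of them both low-line arrays lay below both control arrays, as in 30.3% of all tested probe sets. Of 10 endothelial markers 5 were higher and 2 lower in the low line, and sums were 10540 and 10043 on the high-line arrays, 10873 and 10875 on the low-line arrays and 9564 and 9299 on the control arrays. Of 9 macrophage markers 2 were higher in the low line and 4 lower in the high line, and sums were 8889 and 9044 on the high-line arrays, 10361 and 10721 on the low-line arrays and 9841 and 10079 on the control arrays. The part of these markers' cells in the members' values was not tested.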

How the data were processed

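Each array's deposited column gives probe set signal intensity on a linear scale. GCOS is named in the submitters' processing notes; summary algorithm and scaling target: not given in the sources used here. All columns had the same trimmed mean (300.002), so that scaling was retained. Of 45037 non-control probe sets, 34945 had 1 symbol, 932 several and 9160 were unlisted; 4 shared between a member and another gene were left out. A member's probe set is its brightest.

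log2(signal + 16) was fitted with limma 3.58.1 (R 4.3.3): 3 group means over 6 arrays, eBayes with trend (3 residual, 6.43 prior degrees of freedom), on 22519 probe sets at or above the median brightness. Calls are two-sided, with Benjamini-Hochberg adjusted p below 0.05 over all of these. The fit was tested on simulated data. The number of arrays limits the precision.

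Members and lists were chosen with earlier results of these data known. Named are Fasn, Mrps36, per comparison up to 6 called members with the biggest rises and 6 with the biggest falls, those called in every comparison, the stalk, tunnel, protuberance and S18 members, those with opposed probe sets, the brightest and dimmest, and up to 4 genes of each other list with the smallest p per comparison. Any other name (such as Mrpl39, Mrps7, Mrps10, Dap3 or Tfam) was chosen after its values were seen. Replicate numbers do not pair the arrays (correlations of deviations 0.0396, 0.0273 and 0.000398). Plots used matplotlib 3.10.9 (Python 3.11.15).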

Additional observations from a re-analysis of the deposited data

Results flagged for a closer look

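The response of the lines, each set against the shared controls, differed in 22 members by the test of the difference itself (limma, adjusted p below 0.05). That is 28.9% of the members, against 18.6% of all tested probe sets. On the log2 scale the high line stood above the low line for Mrpl14 by 0.597, Mrpl40 by 0.552, Mrpl27 by 0.454, Mrpl19 by 0.425, Mrpl20 by 0.364 and Mrpl1 by 0.362. It also did so for Mrpl28 by 0.326, Mrpl39 by 0.27, Mrpl57 by 0.256, Mrpl3 by 0.239, Mrpl43 by 0.237, Mrpl22 by 0.236 and Mrpl11 by 0.211. Among Mrps genes the high line exceeded the low line for Mrps34 by 0.873, Mrps27 by 0.363, Mrps18a by 0.356, Mrps30 by 0.332, Mrps10 by 0.311, Mrps7 by 0.294, Mrps18c by 0.21 and Mrps16 by 0.184. For Mrpl9 high minus low was -0.27. Groups of 2 arrays are too small for a search for single arrays that stand apart.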

How the results depend on the processing

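Counts were recomputed under 11 alternatives and with each of the 6 arrays left out. The share called over all tested probe sets moved with the setting too. For high minus low, higher calls were 9.69% in the main fit, 7.56% with median centring, 3.36% with no filter and 3% without trend. For low minus control, 13.5% were higher and 10.8% lower in the main fit, and 9.59% and 6.29% without trend. For high minus control, these were 8.18% and 6.18%, then 2.68% and 2.2% with no filter and 3.18% and 2.3% without trend. In the high line against control, members higher were 0 with median centring, 0 with no filter, 0 without intensity trend and 0 with only the 4 arrays compared (limma; 3, 8, 3 and 5 at an unadjusted p below 0.05), 4 with the filter at the 75th percentile and 1 with probe sets averaged. Members lower were 1 with no filter, 0 without trend (6 unadjusted), 3 with the 4 arrays and 3 averaged. Leaving out arrays gave 0 to 4 higher and 0 to 7 lower. In the low line, the model without trend gave 1 higher and 12 lower, and leaving out arrays 0 to 6 higher and 18 to 34 lower. In the high against the low line, members higher were 13 with median centring, 13 with no filter, 5 without trend and 6 to 22 with an array left out. Members lower were 3 with quantile normalization, 2 with median centring, 3 with cyclic loess, 2 with the filter at the 75th percentile, 0 without trend (1 unadjusted) and 0 to 2 with an array left out. The median was 0.0801 with cyclic loess. A group left with 1 array is assumed to vary like the others. With the replicate block, 22 members were higher and 2 lower for high against low FASN, with 3 higher and 6 lower for high FASN against control, and 5 higher and 31 lower in the low line. Averaging probe sets, which takes in dimmer ones, turned Mrps2 in the high line (0.0648), Mrpl15 (0.0398) and Mrps14 (0.279) in the low line and Mrpl3 between the lines (-0.0339). The causes were not tested.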

Other observations

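Of the 8 members on chromosome 17 (RefSeq, GRCm38.p6), 5 were lower in the low line than in control (Mrps34, Mrpl28, Mrpl14, Mrps10 and Mrps18a) and 1, Mrpl2, was higher. Of all 897 tested probe sets of named genes there, 14.3% were lower and 8.47% higher. Chromosome 11 holds 11 members, of which 6 were lower, against 12.3% of its 1636 tested probe sets. Over all members, 42.1% were lower. On chromosome 14, 3 of 3 members were lower, and on chromosome 1, 3 of 4. These chromosomes were singled out after the values had been seen, and no test was made.

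Mrps11 and Mrpl46 lie head to head, with start sites 42 bases apart and promoter windows that overlap by 141 bases. In the low line against control Mrps11 stood at -0.012 (limma adjusted p = 0.931) and Mrpl46 at -0.15 (adjusted p = 0.0912).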
